A study of Bos taurus with 6 samples.

Results

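The enzymes that add or remove methyl groups on histones and those that remove acetyl groups were followed in bovine granulosa cells, the steroid-making cells inside the wall of the ovarian follicle. They were chosen by name: every gene whose platform symbol belonged to the KDM, KMT, SUV39H, SUV420H, EHMT, SETD, SETDB, EZH, NSD, HDAC, SIRT or PRMT series. The rule gave 52 genes with 83 probes among 15215 genes with a symbol, and used no measured value. In 46 of them at least 1 probe was above background, that is, brighter than 95% of negative control spots, for the same RNA on at least 4 of the 6 arrays. The other 6 genes, HDAC3, KDM1B, PRMT2, PRMT8, SETD1B and SETD7, had no such probe and are left out of the counts below.

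The cells came from multiparous Holstein cows whose ovaries were stimulated with gonadotropins, after which follicle stimulating hormone (FSH) was withheld, a step called coasting. They were aspirated from pre-ovulatory follicles 68 hours after the last FSH injection. The comparison set 3 cows that also received cetrotide against 3 control cows, which had the same stimulation and coasting. Cetrotide, or cetrorelix, blocks the receptor for gonadotropin releasing hormone, and so curbs pituitary secretion of luteinizing hormone. The study lists each sample as in vivo and gives neither the dose of cetrotide nor the age of the cows in the labels used here.

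Histone methyltransferases place methyl groups on lysines and arginines of the histone tails, and demethylases take them off. Methylation of lysine 9 or lysine 27 of histone H3 (H3K9, H3K27) is associated with silent chromatin, and that of H3K4 and H3K36 with active genes. Deacetylases remove acetyl groups from lysines, which usually accompanies lower transcription, and many of them work in larger corepressor complexes. Sirtuins are deacylases that need NAD, and several of them act in mitochondria or on proteins other than histones. In the follicle, granulosa cells change their chromatin and their expressed genes as they differentiate towards luteal cells after the luteinizing hormone surge. The roles named below are known mainly from human and mouse cells.

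Each of the 6 two-colour arrays carried cetrotide RNA and control RNA. Cetrotide RNA was labelled with Cy5 on the 3 arrays of slide 1 and with Cy3 on the 3 arrays of slide 2, and each replicate is the mean of the slide 1 and slide 2 arrays of 1 area, which gives n = 3 with the dyes balanced. Values are log2 ratios of cetrotide over control, so that a value below 0 is lower with cetrotide. Between 53.5% and 82.5% of probes were above background per array and RNA. The p-values are those of limma on the 3 replicates, and adjusted p-values follow Benjamini and Hochberg over all 27429 features tested, or over all 31769 kept probes for the other kept probes of a gene. Of the 46 enzyme genes, 36 were above background for both RNAs on all 6 arrays. The labels do not say which cow is on which array, so each p-value reflects the spread of these samples alone, which may be technical in part.

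No enzyme gene passed the adjusted threshold of 0.05, and neither did any other feature (0% called). With p under 0.05 before adjustment, 3 of the 46 enzyme genes (6.52%) were lower with cetrotide, where 6.46% of all features were. The same threshold gave 6 higher (13.0%), where 8% of all features were. The lower genes were SUV39H2, SIRT5 and PRMT5, and the higher ones SIRT1, KDM2A, SIRT6, KDM4B, HDAC5 and HDAC1. The share of lower enzyme genes was thus near that of all features, and the higher share was above it, a difference that was not tested. HDAC5 passed the background filter only through the cetrotide RNA, in which it was higher, and without it 5 higher genes were left. With all 6 arrays and the area number as a replicate block, limma gave 9 genes lower before adjustment (19.6%), where 8.94% of all features were, and 8 genes higher (17.4%), where 10.5% were. KDM2A dropped out of the higher genes in the blocked fit, EHMT1, HDAC2 and KDM5C came in, and EZH2, HDAC6, KDM4C, SETDB2, SIRT3 and SIRT4 came in among the lower genes. In that blocked fit 1 gene, SUV39H2, passed the adjusted threshold (adjusted p = 0.0261), where 0.962% of all features passed as lower and 1.5% as higher.

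The enzyme genes as a whole lay close to 0. Of the 46, 25 had a mean log2 ratio below 0 and 21 above, with a median of -0.02 beside -0.01 over all features. Their means ran from -0.82 to 0.90, and none reached 2-fold. In 9 genes (19.6%) the mean difference was at least 1.5-fold, where 12.9% of all features were. The median SD over the replicates was 0.34 for the enzyme genes and 0.19 for all features. All 6 arrays had the same sign in 4 lower enzyme genes (8.70%), where 7.41% of all features were lower on all 6. These were SUV39H2, SIRT5, PRMT5 and SETD6. All 6 arrays were above 0 in 3 genes, SIRT6, KDM4B and HDAC5 (6.52%), where 7.86% of all features were.

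**Figure D1:**
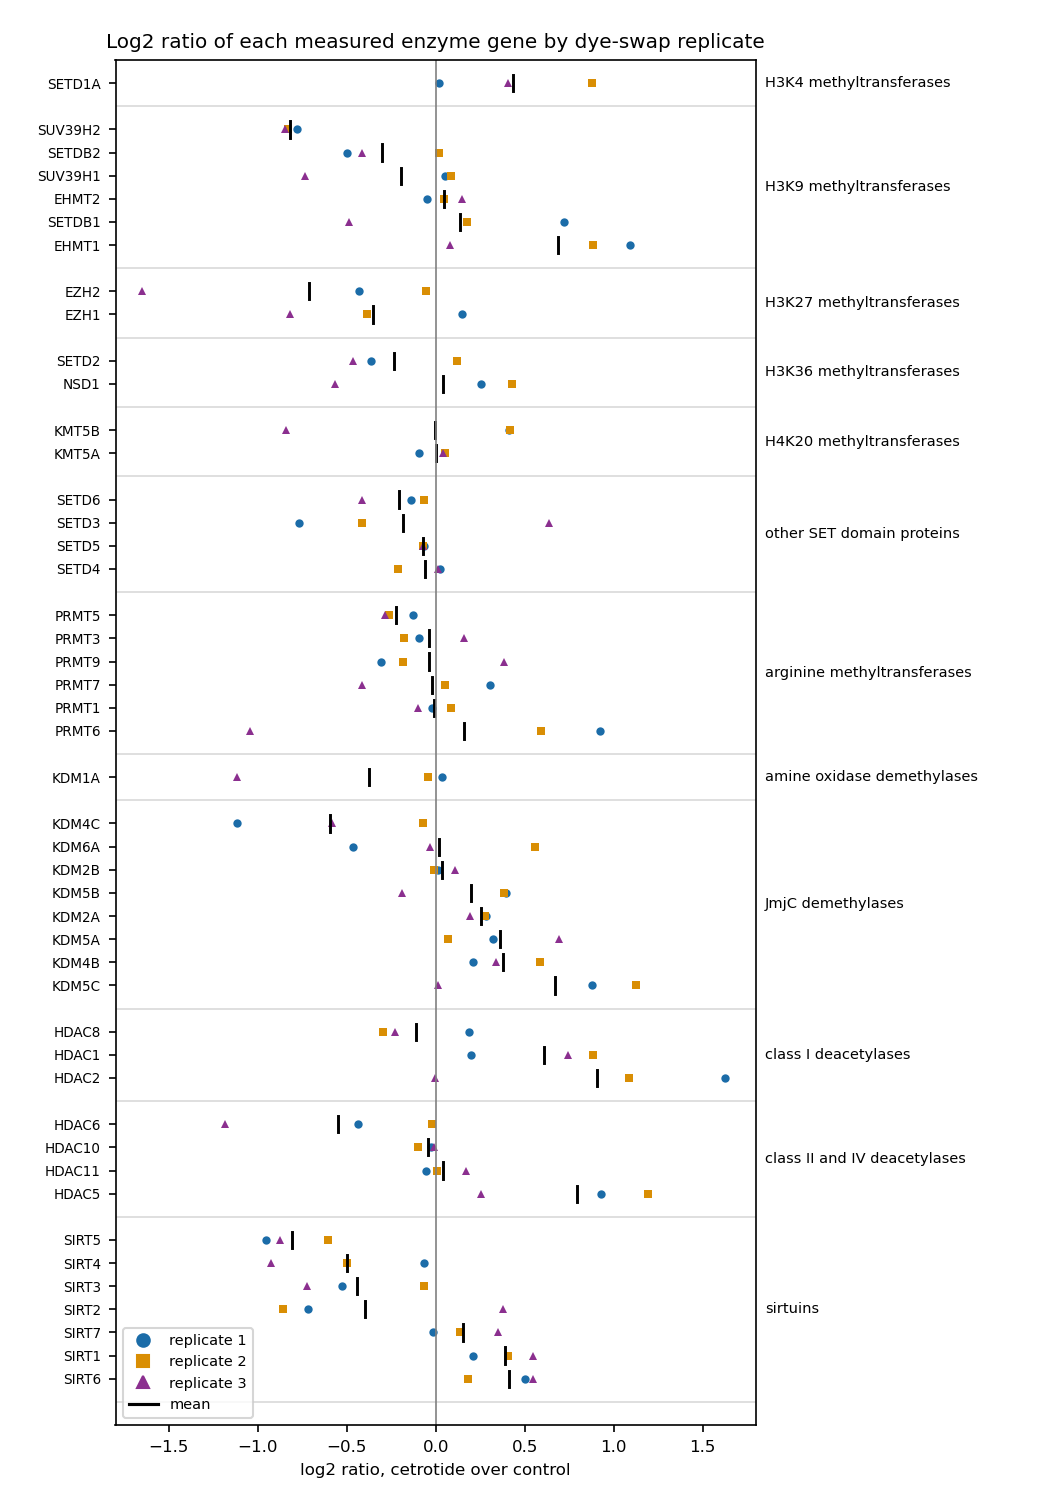
Log2 ratio of cetrotide over control (horizontal axis) of the 46 measured enzyme genes, grouped by role, with 1 point for each dye-swap replicate and a bar at their mean. The points of SUV39H2 lie between -0.85 and -0.78, while those of PRMT6 run from -1.04 to 0.92.

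Among the enzymes that methylate H3K9, a mark read by heterochromatin proteins, SUV39H2, which trimethylates this lysine, had the lowest mean of all 46 genes. Its log2 ratio was -0.50, -0.58 and -0.50 on the arrays of slide 1 and -1.06, -1.08 and -1.20 on those of slide 2. All 6 arrays were below 0, and the slide 2 arrays were all lower than the slide 1 arrays. The replicates gave -0.78, -0.83 and -0.85, a mean of -0.82 ± 0.04 (SD, n = 3), or 1.77-fold lower with cetrotide (limma, adjusted p = 0.178). On the log2 intensity scale its level was 7.67, 8.23 and 7.73 in the cetrotide RNA and 8.45, 9.06 and 8.58 in the control RNA of replicates 1 to 3, and the 2 RNAs did not overlap. A dimmer probe of SUV39H2, above background for each RNA on 4 arrays, gave 0.05 ± 0.20 (SD, n = 3). The 2 probes of this gene therefore did not show the same difference.

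SUV39H1, the paralog with the same activity, gave 0.05, 0.09 and -0.73 in replicates 1 to 3. Only replicate 3 was clearly below 0, and the mean of -0.20 ± 0.46 (SD, n = 3) was smaller than its spread. EHMT1, which forms a dimer with EHMT2 that mono- and dimethylates H3K9, gave 1.09, 0.88 and 0.08, and a mean of 0.69 ± 0.53 (limma, adjusted p = 0.365). EHMT2 itself gave -0.05, 0.05 and 0.15, with a mean of 0.05 ± 0.10. The 2 partners of this dimer thus had different values in replicates 1 and 2 and similar ones in replicate 3. SETDB1, which methylates H3K9 at retroelements, gave 0.72, 0.18 and -0.49, on both sides of 0. SETDB2 gave -0.50, 0.02 and -0.41, with a mean of -0.30 ± 0.28. Of the 6 measured H3K9 methyltransferases, 1 (16.7%) was past an unadjusted p of 0.05 as lower and 0 as higher. Over all features these shares were 6.46% and 8%. The median of the 6 genes was -0.07.

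The catalytic subunits of Polycomb repressive complex 2, which methylate H3K27, were both below 0 in the mean. EZH2 gave -0.43, -0.05 and -1.65 in replicates 1 to 3, and a mean of -0.71 ± 0.84 (SD, n = 3; limma, adjusted p = 0.512). Its value in replicate 3 was the lowest of any enzyme gene in any replicate, and a second EZH2 probe was above background on at most 1 array. In the cetrotide RNA its log2 level was 10.35, 10.70 and 9.0, and in the control RNA 10.78, 10.75 and 10.65, so that the cetrotide RNA of replicate 3 stood apart from the other 5 values. On its brightest probe EZH1 gave 0.15, -0.39 and -0.82, with a mean of -0.35 ± 0.48. The other kept probe of EZH1 gave -0.04 ± 0.14. None of these means of EZH2 and EZH1 exceeded its spread.

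For active marks, SETD1A, which methylates H3K4 in a COMPASS complex, gave 0.02, 0.88 and 0.41 and a mean of 0.43 ± 0.43 (limma, adjusted p = 0.464). SETD2, which trimethylates H3K36 behind elongating RNA polymerase, gave -0.36, 0.12 and -0.47 and a mean of -0.24 ± 0.31, and its other kept probe gave -0.34 ± 0.47. NSD1, which dimethylates H3K36, gave 0.26, 0.43 and -0.57. The values of these writers differed between replicates by more than their means differed from 0.

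KMT5B, which with its paralog di- and trimethylates H4K20, gave 0.41, 0.42 and -0.84, a mean of -0.00 ± 0.72. Its other kept probes gave -0.49 ± 0.37 and 0.12 ± 0.48. On all 3 probes replicate 3 was the lowest, at -0.84, -0.92 and -0.43. Without replicate 3 the mean of its brightest probe was 0.41. KMT5A, which places the first methyl group on that lysine, stayed between -0.09 and 0.05.

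Among the other SET domain proteins, SETD6, known to methylate the NF-kappa-B subunit RELA, was below 0 on all 6 arrays. Its replicates gave -0.14, -0.07 and -0.41, and a mean of -0.21 ± 0.18 (limma, adjusted p = 0.487). SETD3, which methylates a histidine of actin, gave -0.77, -0.42 and 0.64 on its brightest probe, so that here replicate 3 was the one above 0. The other kept probe of SETD3 gave 0.18 ± 0.09. SETD4 and SETD5 had means of -0.06 ± 0.13 and -0.07 ± 0.004. Of the 17 measured lysine methyltransferases and SET proteins, 1 (5.88%) was past an unadjusted p of 0.05 as lower and 0 as higher. Over all features these shares were 6.46% and 8%. A mean below 0 was found in 53.2% of all features and in 11 of these 17 genes. Their median was -0.05, 0.05 and -0.41 in replicates 1 to 3.

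The arginine methyltransferases had a median of -0.03. PRMT5, which places symmetric dimethylarginine on histones and splicing proteins, was below 0 on all 6 arrays, from -0.34 to -0.10. Its replicates gave -0.13, -0.26 and -0.28, and a mean of -0.23 ± 0.09 (SD, n = 3), 1.17-fold lower with cetrotide (limma, adjusted p = 0.319). Its dimmer probe gave -0.06 ± 0.05. PRMT1, the main source of asymmetric dimethylarginine, gave -0.02, 0.08 and -0.10 on its brightest probe and a mean of -0.05 ± 0.05 on the other. PRMT3, PRMT7 and PRMT9 had means between -0.04 and -0.02 on their brightest probes. The other kept probes of PRMT9 gave -0.36 ± 0.29, below 0 on all 6 arrays, and -0.20 ± 0.43. PRMT6, which methylates arginine 2 of histone H3, had the widest spread of all enzyme genes, with 0.92, 0.59 and -1.04 and a mean of 0.16 ± 1.05. Of the 6 measured genes, 1 (16.7%) was past an unadjusted p of 0.05 as lower and 0 as higher. Over all features these shares were 6.46% and 8%.

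The demethylases with a JmjC domain that the symbol rule matched had means above 0 in 7 of 8 genes, with a median of 0.22. Over all features 53.2% had means below 0. At an unadjusted p under 0.05, 2 of the 8 (25.0%) were higher, where 8% of all features were. They were KDM4B and KDM2A, and KDM2A changed sign between the slides. KDM4B, which removes methyl groups from H3K9, gave 0.24, 0.45 and 0.31 on slide 1 and 0.18, 0.72 and 0.37 on slide 2. All 6 arrays were above 0, and the mean was 0.38 ± 0.19 (SD, n = 3), 1.30-fold higher with cetrotide (limma, adjusted p = 0.286). Its other kept probe had a mean of 0.42 ± 0.24 (limma, adjusted p = 0.303), but its slide means were -0.10 and 0.94. The direction on that probe thus differed between the slides.

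KDM2A, which demethylates H3K36 and binds unmethylated CpG islands, had a mean of 0.25 ± 0.05 (SD, n = 3; limma, adjusted p = 0.264). Its slide 1 arrays gave -0.09, -0.09 and -0.06, and its slide 2 arrays 0.66, 0.64 and 0.45. The 2 slides did not overlap and lay on opposite sides of 0, and in the blocked fit KDM2A was no longer past an unadjusted p of 0.05 (adjusted p = 0.272). KDM4C, a paralog of KDM4B with the same substrate, pointed the other way, with -1.12, -0.07 and -0.59 and a mean of -0.59 ± 0.52 (limma, adjusted p = 0.414). Among the 8 measured JmjC genes chosen by platform symbol, it was the single one with a mean below 0.

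The H3K4 demethylases of the KDM5 family were above 0 in the mean. KDM5C gave 0.88, 1.12 and 0.02, and a mean of 0.67 ± 0.58 (limma, adjusted p = 0.406). KDM5A gave 0.32, 0.07 and 0.69. The brightest probe of KDM5B gave 0.39, 0.39 and -0.19, a mean of 0.20 ± 0.33. A second KDM5B probe gave 0.88, 0.93 and 0.48, with a mean of 0.76 ± 0.24 (limma, adjusted p = 0.204), and the third gave -0.23 ± 0.31. The H3K27 demethylase KDM6A gave -0.47, 0.56 and -0.03, and KDM2B stayed between -0.01 and 0.11. The amine oxidase KDM1A, which removes methyl groups from H3K4 within corepressor complexes, gave 0.04, -0.04 and -1.12 and a mean of -0.37 ± 0.64. Its dimmer probe gave 0.02 ± 0.07.

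Of the class I deacetylases, HDAC1 and HDAC2, paired catalytic subunits of the NuRD, SIN3 and CoREST corepressors, had means of at least 1.5-fold higher with cetrotide. HDAC1 gave -0.10, 0.58 and 0.41 on slide 1 and 0.49, 1.19 and 1.07 on slide 2. Of the 6 arrays, 5 were above 0, and the slide 2 value was higher in every area. The replicates gave 0.20, 0.89 and 0.74, and a mean of 0.61 ± 0.36 (SD, n = 3), 1.52-fold higher with cetrotide (limma, adjusted p = 0.296).

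HDAC2 had the highest mean of all enzyme genes, 0.90 ± 0.83 (SD, n = 3), with 1.63, 1.09 and -0.00 in replicates 1 to 3 (limma, adjusted p = 0.42). Its log2 level was 10.83, 10.01 and 9.67 in the cetrotide RNA and 9.21, 8.92 and 9.67 in the control RNA. Cetrotide RNA was the higher one in replicates 1 and 2, and the RNAs were level in replicate 3. HDAC8 gave 0.19, -0.30 and -0.23, with slide means of 0.31 and -0.53. The single probe of HDAC3 was above background on 0 arrays.

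Of the 3 measured class I genes 0 were lower and 1 (33.3%) higher before adjustment, and of the 4 class II and class IV genes 0 and 1 (25.0%). Over all features 6.46% were lower and 8% higher. HDAC5, a class IIa deacetylase that shuttles between nucleus and cytoplasm, was above 0 on all 6 arrays, from 0.10 to 1.4. Its replicates gave 0.93, 1.19 and 0.25, and a mean of 0.79 ± 0.48 (SD, n = 3), 1.73-fold higher with cetrotide (limma, adjusted p = 0.294). The probe was above background in the control RNA on 3 arrays and in the cetrotide RNA on all 6, so it passed the filter only through the RNA in which it was higher, and the fold and its test are a description. HDAC6, a cytoplasmic deacetylase of tubulin, gave -0.43, -0.02 and -1.19 and a mean of -0.55 ± 0.59 (limma, adjusted p = 0.488). HDAC10 and HDAC11 had means of -0.05 ± 0.05 and 0.04 ± 0.12.

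All 7 sirtuins were measured, and they lay on both sides of 0. Before adjustment 1 was lower (14.3%) and 2 higher (28.6%), where 6.46% and 8% of all features were. SIRT5, a mitochondrial enzyme that removes succinyl and malonyl groups, gave -0.90, -0.53 and -0.64 on slide 1 and -1.0, -0.67 and -1.10 on slide 2. All 6 arrays were at least 0.53 below 0. The replicates gave -0.95, -0.60 and -0.87, and a mean of -0.81 ± 0.18 (SD, n = 3), 1.75-fold lower with cetrotide (limma, adjusted p = 0.178). Its log2 level was 7.53, 7.84 and 7.76 in the cetrotide RNA and 8.49, 8.44 and 8.64 in the control RNA, with no overlap. Its other kept probes gave -0.26 ± 0.05 (limma, adjusted p = 0.268) and 0.04 ± 0.10.

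The other mitochondrial sirtuins were also below 0 in every replicate on their brightest probes. SIRT4 gave -0.07, -0.50 and -0.93, a mean of -0.50 ± 0.43 (limma, adjusted p = 0.413). SIRT3, the main mitochondrial deacetylase, gave -0.53, -0.07 and -0.73, a mean of -0.44 ± 0.34 (limma, adjusted p = 0.376). Its other kept probes gave -0.11 ± 0.01 and 0.00 ± 0.01. Of these 3 mitochondrial enzymes, SIRT5 was past an unadjusted p of 0.05 on the replicates, and SIRT3 and SIRT4 were so in the blocked fit (adjusted p = 0.148 and 0.231).

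The nuclear sirtuins lay above 0 in the mean of their brightest probes. SIRT6, which deacetylates H3K9 and acts in DNA repair, gave 0.55, 0.02 and 0.42 on slide 1 and 0.46, 0.34 and 0.68 on slide 2. Its mean was 0.41 ± 0.20 (SD, n = 3), 1.33-fold higher with cetrotide (limma, adjusted p = 0.271). Its other kept probes gave 0.01 ± 0.05 and -0.03 ± 0.14, so that the difference was seen on 1 of 3 probes. SIRT1, which deacetylates histones and transcription factors, gave 0.45, 0.63 and 0.78 on slide 1 and -0.03, 0.19 and 0.32 on slide 2. The mean was 0.39 ± 0.17 (SD, n = 3), 1.31-fold higher with cetrotide (limma, adjusted p = 0.262). A second SIRT1 probe gave 0.77 ± 0.40 (limma, adjusted p = 0.263), but it was above background on 5 cetrotide and 2 control arrays and so passed the filter only through the RNA in which it was higher. The third gave -0.19 ± 0.67. SIRT7 gave -0.02, 0.13 and 0.35 on its brightest probe and -0.14 ± 0.10 on the other. SIRT2, a mainly cytoplasmic tubulin deacetylase, gave -0.72, -0.86 and 0.38 on its brightest probe, while its other probe gave 0.34, 0.29 and 0.29, a mean of 0.31 ± 0.03 (limma, adjusted p = 0.226). On that other probe the slide 1 arrays gave -0.11, -0.21 and -0.26 and the slide 2 arrays 0.80, 0.80 and 0.84, opposite signs that the average of the slides does not show.

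**Figure D2:**
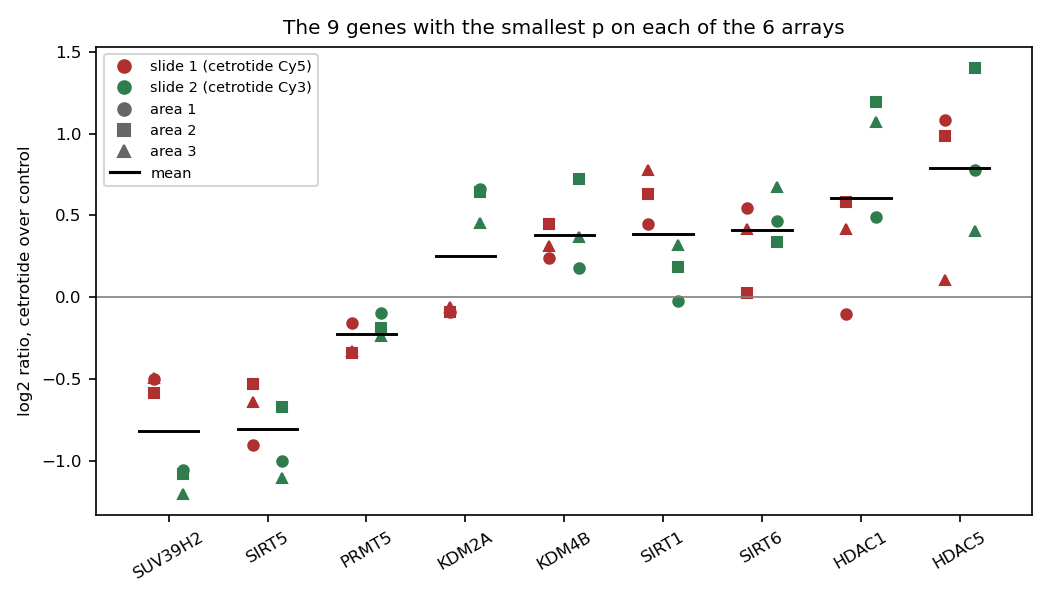
Log2 ratio of cetrotide over control (vertical axis) on each of the 6 arrays for the 9 enzyme genes with an unadjusted p under 0.05, with the slides by colour, the areas by symbol and a bar at the mean. SUV39H2, SIRT5 and PRMT5 are below 0 on every array, and KDM2A lies below 0 on slide 1 and above 0 on slide 2.

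Several genes were read by more than 1 probe, and the probes often differed. Among 17 enzyme genes read by several kept probes, both signs occurred in 11 (64.7%), as they did in 1214 of 2915 such named genes on the array (41.7%). Over the 70 kept probes of the enzyme genes, 4 were lower at an unadjusted p under 0.05 (5.71%), where 6.58% of all 31769 kept probes were. On the same test 10 were higher (14.3%), where 7.84% of all kept probes were. Among the 10, the KDM2A probe and the second probes of KDM4B and SIRT2 changed sign between the slides. The second SIRT1 probe and the HDAC5 probe were above background in the control RNA on 2 and 3 arrays. The other 29 measured genes rested on 1 kept probe. Which transcript or exon each probe reads was not tested.

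**Figure D3:**
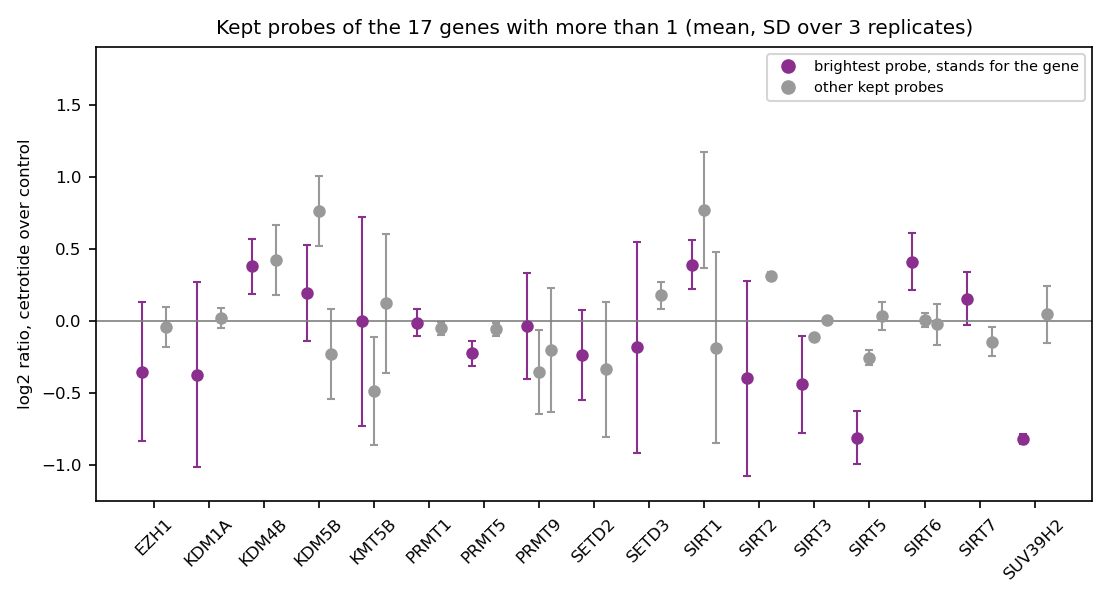
Mean log2 ratio of cetrotide over control with its SD over 3 replicates (vertical axis) for each kept probe of the 17 enzyme genes that had several, with the brightest probe in purple. The probes of KDM4B have means of 0.38 and 0.42, while those of SUV39H2 lie at -0.82 and 0.05 and those of SIRT2 at -0.40 and 0.31.

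The slides, and with them the dye orientation, moved many values. Slide 2 minus slide 1 had an adjusted p under 0.05 (limma) in 25 of the 46 enzyme genes (54.3%), where 59% of all features did, so the share of the enzyme genes was near that of the array. The slide means had opposite signs in 17 enzyme genes (37.0%) and in 48.3% of all features. Of the 9 genes at an unadjusted p under 0.05, KDM2A alone had slide means of opposite sign. SIRT2 had slide means of -0.98 and 0.18, and KMT5B of -0.50 and 0.49. Slide and dye cannot be told apart in this design, and both cancel in the average of a replicate if they act alike in every area.

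**Figure D4:**
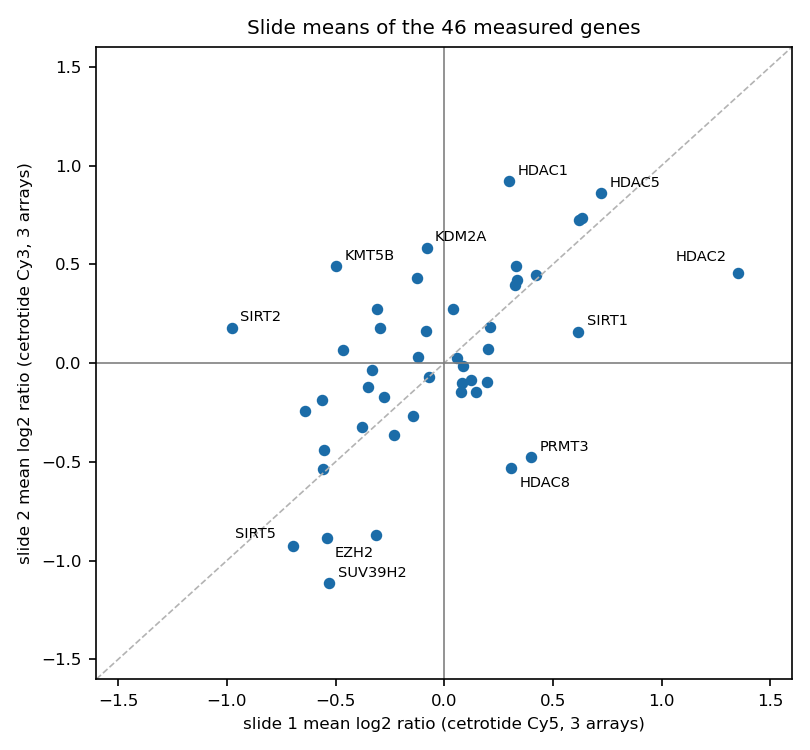
Mean log2 ratio of cetrotide over control over the 3 arrays of slide 2 (vertical axis) against that of slide 1 (horizontal axis) for the 46 enzyme genes, with a dashed line of equality. SUV39H2, SIRT5 and EZH2 lie below 0 on both slides, HDAC1, HDAC2 and HDAC5 above 0 on both, and KDM2A, KMT5B and SIRT2 change sign.

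The replicates also differed from each other. In 8 enzyme genes (17.4%) replicates 1 and 2 were above 0 and replicate 3 below, as in KMT5B and PRMT6, where 12% of all features had that pattern. The reverse pattern, as in SETD3 and SIRT2, was found in 4 enzyme genes (8.70%) and in 16.0% of all features. All 3 replicates had 1 sign in 21 enzyme genes (45.7%) and in 38.6% of all features. Without replicate 1, the count at an unadjusted p under 0.05 was 3 lower (6.52%) and 2 higher (4.35%), where 2.77% and 4.27% of all features were. Without replicate 2 it was 6 lower (13.0%) and 1 higher (2.17%), where 6.04% and 6.93% of all features were. Without replicate 3 it was 4 lower (8.70%) and 9 higher (19.6%), where 6.43% and 11% of all features were.

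Marker genes of cell types differed between the replicates. The median log2 ratio of 16 measured granulosa markers, out of 18, was -0.45, 0.18 and -1.55 in replicates 1 to 3, with 9, 3 and 15 of them below 0. FOXL2 and LHCGR had no kept probe, and the mean log2 level of the list ran from 10.06 to 11.55 in the cetrotide RNA and from 11.05 to 11.60 in the control RNA. All 16 markers of cycling cells were measured, with medians of -0.14, -0.02 and -1.29 and mean levels of 8.54 to 9.83 with cetrotide and 9.50 to 9.81 in controls. In the mean 13 of them were below 0 and 3 above. MCM2 was above 0 on all 6 arrays, with 1.24, 0.52 and 0.86. On their brightest probes some enzyme genes, among them EZH2, KDM1A, SUV39H1 and HDAC6, had their lowest value in replicate 3. Others, among them KDM5A, SIRT1, SETD3, PRMT9, SIRT2 and SIRT7, had their highest there. These genes are examples, and their numbers do not show how many enzyme genes lay on each side. In that replicate 26 of the 46 enzyme genes were below 0, where 48.1% of all features were, and the median of the enzyme genes was -0.05.

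All 6 measured epithelial markers, out of 7, were above 0 on all 6 arrays, with medians of 1.13, 1.59 and 3.38. Their mean log2 level ran from 8.98 to 14.0 with cetrotide and from 7.51 to 10.3 in controls, and CDH1 had no kept probe. The 8 measured endothelial markers, of 10, had medians of 1.10, -0.02 and 0.71, with mean levels of 7.14 to 8.27 with cetrotide and 7.10 to 7.32 in controls, and PECAM1 and TIE1 had no kept probe. Of these, EMCN and ENG were above background on 4 and 5 cetrotide arrays and on 3 control arrays each. Both thus passed the filter only through the RNA in which they were higher. The 9 measured leukocyte markers, of 11, had medians of 0.54, -0.04 and 0.88, with mean levels of 8.28 to 8.72 with cetrotide and 7.39 to 8.28 in controls, and ITGB2 had no kept probe. The 11 measured theca markers, of 12, had medians of 0.55, 0.04 and 0.13, with mean levels of 9.65 to 10.5 with cetrotide and 8.52 to 9.56 in controls. Of these, the collagen genes COL1A2 and COL3A1 were above 0 on all 6 arrays. COL1A2 gave 7.23, 1.10 and 4.78 and COL3A1 8.37, 0.40 and 4.98, values that the list's medians do not show. COL1A2 was above background on 6 cetrotide and 3 control arrays, so it passed the filter only through the RNA in which it was higher. PTCH1 went the other way, below 0 on all 6 arrays, with -1.35, -0.50 and -1.16. The means of CYP17A1, TAGLN and GLI1 were 0.03, 0.02 and -0.02. The 5 measured oocyte markers, of 10, had medians of 0.06, 0.01 and 0.06, with mean levels of 7.09 to 7.16 with cetrotide and 7.05 to 7.14 in controls, and GDF9, ZAR1, ZP4, NLRP5 and DPPA3 had no kept probe. The part of these cell types in the values of the enzyme genes was not tested. In aspirated cells measured in bulk, fewer cells of a type and less RNA per cell cannot be told apart.

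**Figure D5:**
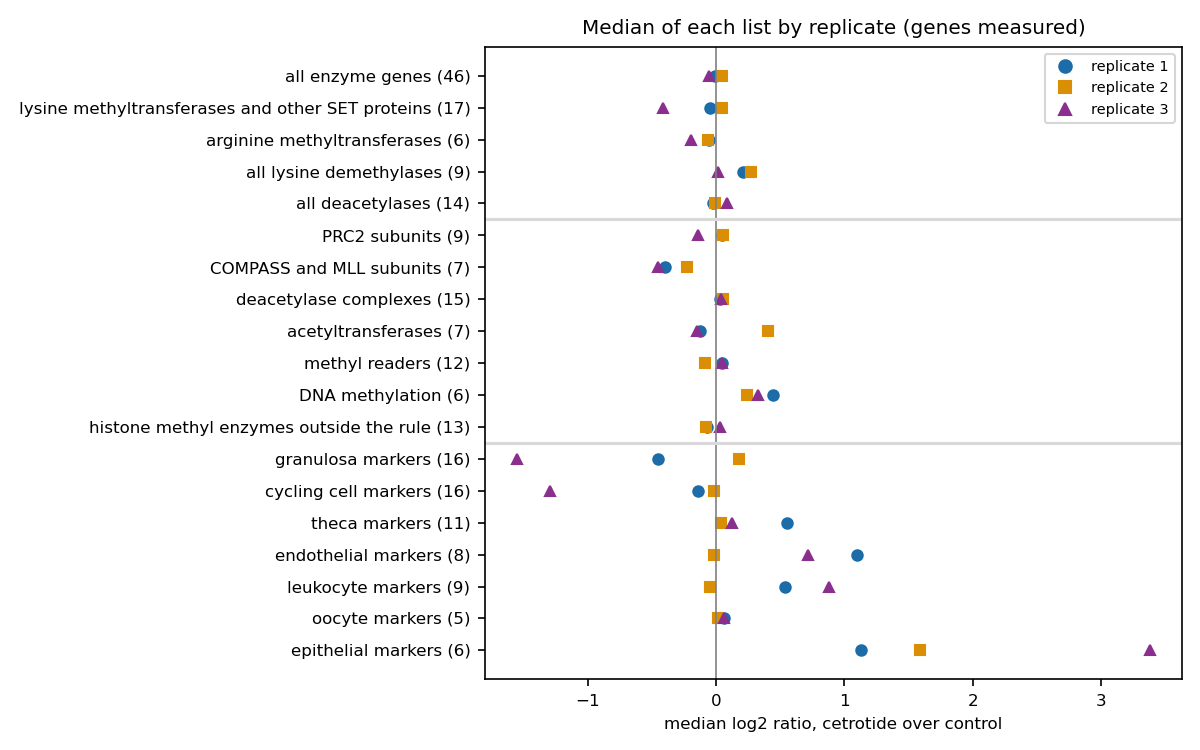
Median log2 ratio of cetrotide over control (horizontal axis) of each gene list in each of the 3 dye-swap replicates, with the number of genes measured in brackets. The enzyme classes at the top stay between -0.41 and 0.28, while in replicate 3 granulosa markers reach -1.55 and epithelial markers 3.38.

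The proteins that work with these enzymes were listed by complex, and each list is read against the 6.46% of all features lower and 8% higher. All 9 partners of EZH1 and EZH2 in Polycomb repressive complex 2 were measured, and 0 were past an unadjusted p of 0.05 in either direction. Their median was 0.00. RBBP7 and RBBP4, histone-binding subunits, had means of -0.32 ± 0.38 and -0.52 ± 0.77, and SUZ12, a core subunit, 0.21 ± 0.38. None of the 3 exceeded the spread between replicates.

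Of 10 subunits of the H3K4 methylating COMPASS and MLL complexes, 7 were measured, with 2 lower and 1 higher before adjustment and a median of -0.29. DPY30 gave -0.53, -0.29 and -0.88, and a mean of -0.57 ± 0.30 (limma, adjusted p = 0.269). ASH2L, its direct partner, gave -0.40, -0.22 and -0.62, and a mean of -0.41 ± 0.20 (limma, adjusted p = 0.269). RBBP5, of the same core module, gave 0.40, 0.36 and 0.11, and a mean of 0.29 ± 0.16 (limma, adjusted p = 0.319). All 3 genes had 1 sign on all 6 arrays, and their lowest adjusted p was 0.269. WDR5, MEN1 and HCFC1 had no kept probe.

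Of 21 subunits of deacetylase complexes, 15 were measured, 0 lower and 1 higher, with a median of -0.01. The higher gene was CHD4, the remodelling ATPase of NuRD, with 1.51, 0.95 and 0.48 and a mean of 0.98 ± 0.51 (limma, adjusted p = 0.257). SAP30 of the SIN3 complex gave -0.46 ± 0.52 and CHD3, a paralog of CHD4, 0.17 ± 0.18. CHD4 was thus above 0 in each replicate, as HDAC1 was, while HDAC2 was at -0.00 in replicate 3. The NuRD subunits MTA2, MBD3, GATAD2A, GATAD2B and MTA3 had means of 0.08, 0.05, 0.04, -0.01 and -0.01.

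Of 13 acetyltransferases, the enzymes that oppose the deacetylases, 7 were measured, 1 lower and 1 higher, with a median of 0.03. KAT5, the catalytic subunit of the NuA4 complex, gave 1.06, 1.25 and 0.55 and a mean of 0.96 ± 0.36 (limma, adjusted p = 0.21). HAT1, which acetylates newly made histone H4, gave -1.14, -0.43 and -0.67 and a mean of -0.75 ± 0.36 (limma, adjusted p = 0.246). NCOA1 gave 0.19 ± 0.57. KAT5 and HAT1 each had 1 sign on all 6 arrays.

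Readers of histone methylation gave 0 lower and 0 higher among 12 measured of 14, with a median of -0.03. CBX5, which binds methylated H3K9, gave -0.04, -0.93 and -1.01 and a mean of -0.66 ± 0.54 (limma, adjusted p = 0.381), and its paralog CBX1 0.35 ± 0.31. CBX6, a Polycomb reader, gave 0.25 ± 0.23. Of 7 genes of DNA methylation, 6 were measured, 0 lower and 1 higher, with a median of 0.48. DNMT3B, a de novo DNA methyltransferase, gave 0.69, 0.45 and 0.34 and a mean of 0.49 ± 0.18 (limma, adjusted p = 0.224), but its slide means were 0.03 and 0.96. DNMT3A gave 0.47 ± 0.46 and TET3, which oxidises methylcytosine, 0.61 ± 0.72.

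Histone methyl enzymes with other symbols made up the last list, in which 13 of 16 were measured, 1 lower and 1 higher, with a median of -0.07. SMYD3, a lysine methyltransferase, gave -0.71, -0.64 and -1.10 and a mean of -0.82 ± 0.25 (limma, adjusted p = 0.192). CARM1, the arginine methyltransferase also known as a coactivator of nuclear receptors, gave 1.38, 0.66 and 1.05 and a mean of 1.03 ± 0.36 (limma, adjusted p = 0.199). SETMAR gave -0.43 ± 0.30 (limma, adjusted p = 0.347). The mean of SMYD3 was close to those of SUV39H2 and SIRT5, and that of CARM1 was larger than that of any gene chosen by the symbol rule.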

How the data were processed

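Per the labels' protocols, total RNA of washed, frozen granulosa cells went through 2 rounds of T7 amplification and was labelled chemically with Cy3 or Cy5. Amplification of small samples can widen the spread between samples. The deposited scanner tables hold spot intensity, as mean and median pixel values of spot and local background, per the file headers. Which scanner and software the authors used was not given in the sources used here. The authors also deposited log ratios, taken here as log2, which ran cetrotide over control in every column (correlation across probes with the scanner ratios 0.918 to 0.972, column medians -0.00191 to 0.00748). Their centring steps are unknown, and they served as an alternative.

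Mean intensities were corrected with normexp (offset 50), and log2 ratios normalized within arrays by loess, control spots at weight 0, in limma 3.58.1 and R 4.3.3. Of 43794 gene probes, 31769 were kept. A gene stood as its kept probe of highest mean log2 intensity and an unnamed probe for itself, giving 27429 features. Levels are channel values after Aquantile normalization and were not set between probes. Same-area arrays were averaged, as their deviations from the slide means correlated at 0.900, 0.934 and 0.954 across genes. Other pairs gave between -0.706 and -0.00759, but deviations from a mean of 3 arrays sum to 0, which by itself lowers those values. The log2 ratios themselves correlated at 0.618, 0.434 and 0.759 for areas 1 to 3, and between -0.0294 and 0.304 for other pairs. Limma (lmFit, eBayes) tested 3 averages against 0, two-sided. The blocked fit took 6 arrays with a dye term and the area as a block (consensus correlation 0.852). Median intensities of 107 to 313 stood beside negative control medians of 78.7 to 247, and the offset pulls ratios of dim probes towards 0. The number of arrays limits the precision. The script was tested on simulated data.

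Symbols came from the platform annotation. SETD8, SUV420H1 and PRMT10 were renamed KMT5A, KMT5B and PRMT9 through RefSeq synonyms (assembly ARS-UCD2.0). A gene that the symbol rule would also match is not reported here. The genes and lists were chosen with earlier results of these data known. Genes were named as follows: up to 8 per direction with the smallest p among those of 1 sign in all replicates, the smallest p per role class, fixed genes of known role, and up to 3 per partner list. Other enzyme genes were added after their values were seen.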

Additional observations from a re-analysis of the deposited data

Results flagged for a closer look

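KDM2A, the H3K36 demethylase, gave opposite directions on the slides: its log2 ratio was below 0 on all 3 arrays of slide 1 and above 0 on all 3 of slide 2. Slide 2 minus slide 1 came to 0.66 on the log2 scale, with slide means of -0.08 and 0.58 (limma, adjusted p = 0.0004 for the difference between slides).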

How the results depend on the processing

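SUV39H2 and SIRT5 had an unadjusted p under 0.05 in all 14 settings tried, with log2 ratios from -1.11 to -0.39 and from -0.93 to -0.34, the smallest in each from the mean of all kept probes. HDAC5 did so in 12, HDAC1, KDM4B and SIRT6 in 10, KDM2A and SIRT1 in 9 and PRMT5 in 6. The count of lower genes, 3, was 6 on slide 1 alone, 5 on slide 2 alone, 9 with the replicate block and 9 with 6 arrays and no block, and 3 to 6 with 1 replicate left out. Over all features the lower share was 8.09%, 13.7%, 8.94% and 12.6% in the first 4 of these settings, so that the 5 genes on slide 2 alone (10.9%) were below the array's share. The count of higher genes, 6, was 3 with median centring in place of loess, 11 with no block and 10 when every kept probe was tested on its own. Shares over all features were 7.20%, 14.8% and 7.84% in these 3 settings. With 1 replicate left out the count was 1 to 9. The authors' deposited log ratios gave 9 genes higher (19.6%) and 4 lower (8.70%), where 6.75% and 6.02% of all features were. The count past an adjusted p of 0.05, 0 of 46, was 1 on slide 2 alone and 1 with the replicate block (SUV39H2 in both). It was 8 with no block, a fit that treats the 2 arrays of an area as independent. Of all 27429 features, 225 were past it as lower and 662 as higher on slide 2 alone. The replicate block gave 264 (0.962%) and 411 (1.5%) of all features, and the fit with no block 1458 and 1806. The median of the enzyme genes was -0.0754 and KDM2A -0.0806 on slide 1 alone. With 1 replicate left out KMT5B ran from -0.21 to 0.41. Updated symbols added NSD3 at 0.68 and KDM8 at 0.29 among the higher genes. They also added KDM4A, a JmjC demethylase, at -0.02 and KMT2E at 0.02, neither past an unadjusted p of 0.05. Of the other settings' results for single named genes, 307 were on the same side of the threshold, 37 passed it newly and 31 no longer did; the cause was not tested. Signal near background limits HDAC5 and the dimmer probes.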
